A study of Mus musculus with 2 samples.

Results

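The Sprouty genes Spry1, Spry2 and Spry4, the SPRED genes Spred1, Spred2 and Spred3, the ETS factor genes Etv4 and Etv5, and the regulator genes Phlda1 and Errfi1 were followed in SV40 MES13, a cultured mouse kidney line that the labels give as mesangial. The 10 genes were chosen by symbol from the 54713 rows of the deposited gene table, and each symbol was found. Lv_AI662270 cells overexpress AI662270, a long noncoding RNA, from a lentivirus, and Lv_NC cells, of genotype WT by their label, received the control virus. Both stable lines were selected in 0.5 mg/ml puromycin and then grown in 0.25 mg/ml puromycin with 10% serum, without further treatment. The sources used here do not give the promoter of the vector or the number of clones, and the protocol names Sox9 as the transcript whose stable expression was checked. RNA of each line was sequenced as 1 library, so the values below describe 2 libraries, were not tested over replicates and do not extend to the conditions. Ranges in brackets are 95% exact counting intervals, which cover counting error only.

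Growth factor receptors with tyrosine kinase activity switch on RAS, which passes the signal through RAF and MEK to the kinase ERK. ERK activity induces genes whose products damp the same route, and the Sprouty and SPRED proteins are the best known of these feedback inhibitors. Sprouty proteins act at the level of the receptor adaptors and RAF, SPRED proteins bring the RAS inhibitor neurofibromin to the membrane, and ERRFI1 binds and blocks receptors of the EGF family. ETV4 and ETV5 belong to the PEA3 group of ETS transcription factors, whose transcripts are widely read as a sign of ERK activity. In the kidney, Sprouty 1 restrains RET signalling during budding of the ureter.

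Both libraries were of similar depth, with 15062482 counts in the Lv_AI662270 library and 15727023 in the Lv_NC library. AI662270 itself had 241 counts in the Lv_AI662270 library, or 15.5 CPM (TMM-scaled counts relative to library size), and 0 counts in the Lv_NC library. By the lower end of the exact counting interval it was at least 63.3-fold higher in the Lv_AI662270 library, and set against a floor of 3 counts in the Lv_NC library the ratio is 78.4. Of 10 mesangial marker genes 5 were measured, 1 of them (Acta2) higher and 2 lower in the Lv_AI662270 library, and Itga8, Thy1 and Ren1 had 0 counts in both libraries. The list summed to 39.2 CPM in the Lv_AI662270 library and 22.2 CPM in the Lv_NC library. Of the podocyte markers, Nphs1 and Ptpro were at 0 in both libraries, and the list summed to 83.2 CPM in the Lv_AI662270 library and 149 CPM in the Lv_NC library, most of it Podxl and Synpo. Of 6 proximal tubule markers, Slc34a1 and Slc22a6 were at 0 in both libraries, and the sums were 56.5 CPM in the Lv_AI662270 library and 63.0 CPM in the Lv_NC library, most of it Lrp2. Endothelial markers summed to 1.41 and 0.592 CPM and leukocyte markers to 5.46 and 6.97 CPM in the Lv_AI662270 and the Lv_NC library. What part these marker levels have in the results below was not tested.

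All 10 genes lay above the minimum for a measured gene, a mean of 1 CPM over both libraries, with means between 15.8 and 115 CPM. A gene was called higher or lower when its log2 ratio, Lv_AI662270 over Lv_NC with 0.5 CPM added to each level, was at least 1 in size and the counting interval of its ratio did not hold 1. By that rule 4 of the 10 genes were lower in the Lv_AI662270 library, 0 were higher and 6 were not called. Among all 13268 measured genes, 5.72% were called lower and 5.59% higher. Among the 6428 measured genes whose mean lay in the same range as the 10 genes, 4.39% were called lower and 2.44% higher. The 4 genes were Spry1, Spry2, Spry4 and Phlda1. Because the 10 genes were chosen with earlier results of these data known, their share is no independent test. The median log2 ratio was -0.60 for the 10 genes, -0.02 for all measured genes and -0.04 for those in the same range of levels. In cultured cells, fewer cells with a transcript and less of it per cell cannot be told apart.

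**Figure D1:**
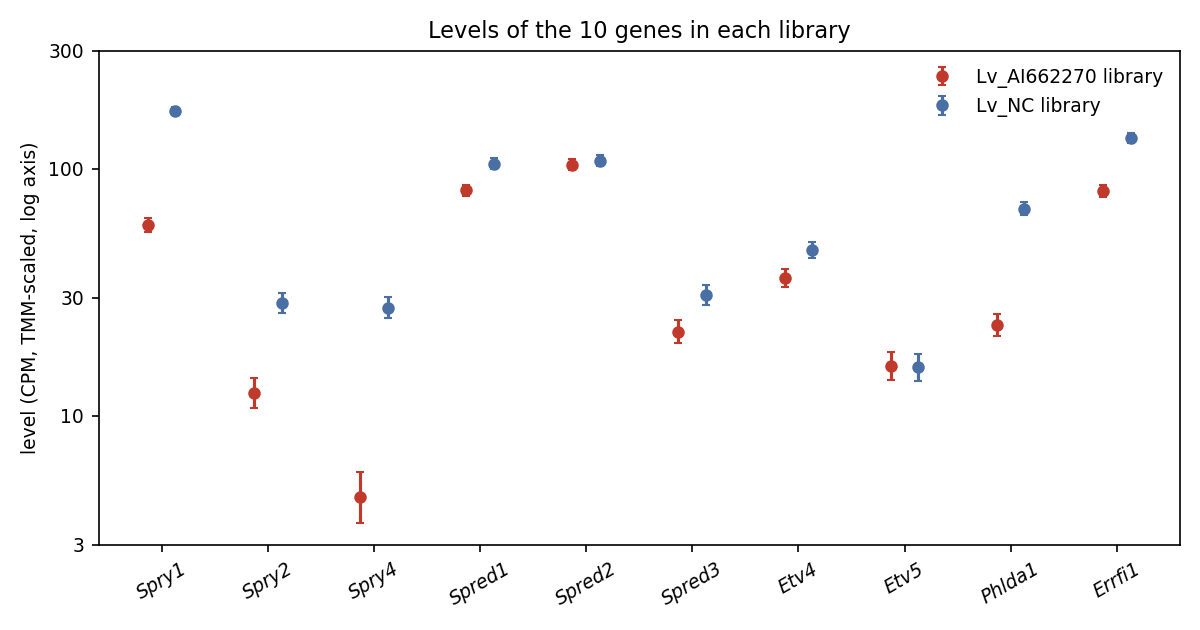
Level of each gene in CPM (log axis) in the Lv_AI662270 library (left point of each pair) and the Lv_NC library (right point), with 95% exact counting intervals and 1 library per group. The points are far apart for Spry1, Spry2, Spry4 and Phlda1, and the 2 intervals overlap for Spred2 and Etv5.

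Spry1, Spry2 and Spry4 were all lower in the Lv_AI662270 library. Spry1, on the plus strand of chromosome 3 from 37639947 to 37644598 in build mm10, had the highest level of them per kb in both libraries, with 922 counts in the Lv_AI662270 library and 2598 in the Lv_NC library. That is 59.2 CPM (55.4 to 63.1) in the Lv_AI662270 library and 171 CPM (164 to 178) in the Lv_NC library, so the level was 2.89-fold lower (2.68 to 3.12) in the Lv_AI662270 library. The 2 intervals are far from each other, and the log2 ratio of Spry1 stood at percentile 2.19 of the measured genes.

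Spry2, on the minus strand of chromosome 14 from 105891947 to 105896819, encodes the Sprouty that binds the ubiquitin ligase CBL and in that way can also prolong EGF receptor signalling. It had 193 counts in the Lv_AI662270 library and 434 in the Lv_NC library. Its level was 12.4 CPM (10.7 to 14.3) in the Lv_AI662270 library and 28.5 CPM (25.9 to 31.4) in the Lv_NC library, 2.30-fold lower (1.94 to 2.74) in the Lv_AI662270 library. The interval of this ratio reaches across the 2-fold line, unlike those of the other 3 genes called lower.

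Spry4, on the minus strand of chromosome 18 from 38586268 to 38601268, had the lowest ratio of the 10 genes, with 73 counts in the Lv_AI662270 library and 416 in the Lv_NC library. The level was 4.69 CPM (3.67 to 5.89) in the Lv_AI662270 library and 27.4 CPM (24.8 to 30.1) in the Lv_NC library, a 5.84-fold lower value (4.54 to 7.60) in the Lv_AI662270 library. Its log2 ratio stood at percentile 0.588 of the measured genes. Spry4 had 0.378 counts per count of Spry2 in the Lv_AI662270 library, against 0.959 in the Lv_NC library. This count ratio needs no library scaling, and its change between the libraries was 0.395 (0.288 to 0.538). Per count of Spry1 there were 0.0792 counts of Spry4 in the Lv_AI662270 library and 0.160 in the Lv_NC library, a change of 0.494 (0.376 to 0.643).

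The remaining paralog, Spry3, was called higher at a level near the minimum. It had 40 counts in the Lv_AI662270 library and 8 in the Lv_NC library, or 2.57 CPM and 0.526 CPM, a ratio of 4.88 (2.25 to 12.1). Its log2 ratio of 1.58 passed the rule, and it was called higher under each of the other scalings as well. The authors' deposited comparison gives Spry3 a log2 fold change of 2.27. It was not called with 2 CPM added to each level, with a minimum mean of 5 CPM, at a 3-fold threshold or on the deposited FPKM. The sum of Spry1, Spry2 and Spry4 was 76.2 CPM in the Lv_AI662270 library and 227 CPM in the Lv_NC library, and Spry3 is not part of it.

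**Figure D2:**
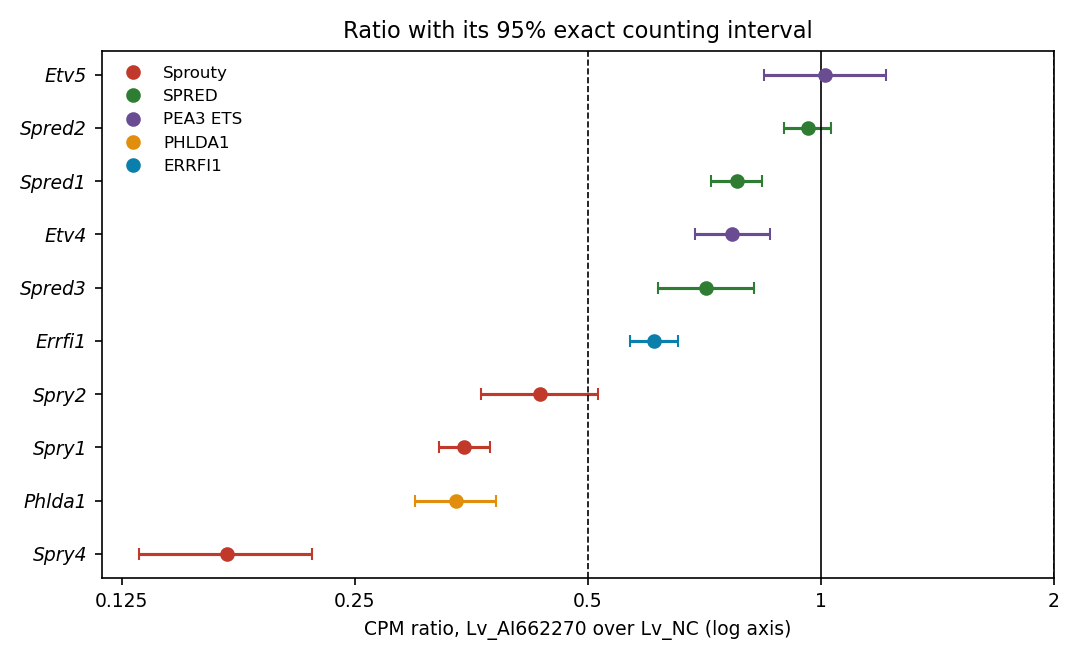
Ratio of CPM, Lv_AI662270 over Lv_NC (log axis), for each of the 10 genes with its 95% exact counting interval, coloured by family. The solid line marks 1 and the dashed lines mark 0.5 and 2. Spry4, Phlda1, Spry1 and Spry2 lie below 0.5, and the upper end of the Spry2 interval, 0.515, is below the lower end of the Errfi1 interval, 0.567.

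The promoters of the genes called lower were read where RefSeq windows for build GRCm38.p6 were at hand. Each window runs from 250 bases before to 50 bases after a start site, and 7 of the 10 genes matched, in 9 windows. Spry4, Etv4 and Phlda1 were not among them. The windows of Spry1 and Spry2 are shown because these 2 genes were called lower together, and the second window of Errfi1 because it holds the cAMP response element. All are printed 5′ to 3′ on the strand of the gene, and capitals mark matches to the searched motifs.
Spry1, chr3:37639697-37639996, plus strand: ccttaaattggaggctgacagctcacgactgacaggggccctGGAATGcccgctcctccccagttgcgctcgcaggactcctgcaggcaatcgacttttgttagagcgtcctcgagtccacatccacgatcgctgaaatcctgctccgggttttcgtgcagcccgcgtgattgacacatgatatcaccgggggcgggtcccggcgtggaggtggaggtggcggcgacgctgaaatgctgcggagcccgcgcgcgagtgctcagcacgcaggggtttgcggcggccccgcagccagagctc
Spry2, chr14:105896770-105897069, minus strand: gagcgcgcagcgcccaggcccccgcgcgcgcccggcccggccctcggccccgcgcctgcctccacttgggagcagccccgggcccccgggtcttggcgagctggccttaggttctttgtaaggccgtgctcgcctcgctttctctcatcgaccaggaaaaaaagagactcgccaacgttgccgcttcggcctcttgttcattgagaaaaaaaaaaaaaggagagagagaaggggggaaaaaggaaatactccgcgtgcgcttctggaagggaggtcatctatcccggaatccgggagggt
Errfi1, chr4:150854820-150855119, plus strand: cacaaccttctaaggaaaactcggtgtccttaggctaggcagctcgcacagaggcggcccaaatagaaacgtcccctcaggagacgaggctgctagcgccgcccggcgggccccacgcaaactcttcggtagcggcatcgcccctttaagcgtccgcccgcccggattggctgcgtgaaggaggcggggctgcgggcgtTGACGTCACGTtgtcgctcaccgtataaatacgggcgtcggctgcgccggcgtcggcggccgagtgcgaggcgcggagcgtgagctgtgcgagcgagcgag
The motifs searched on both strands were TGANTCA (AP-1), TGACGTCA (cAMP response element), CCGGAAG (ETS), TGAATGAA and TGAATGGA (CIC, a repressor that ERK signalling relieves), GCGTGGGCG (EGR), GGAATG (TEAD), ACGTG (hypoxia response element) and the CArG box of serum response factor. The Spry1 window held 1 match, to the TEAD motif, which 14.7% of the 32851 windows of the genome hold. The Spry2 window held no match to any of these letters. Other letters that the same factors can bind, including other forms of the CIC motif, were not searched, so no site is called absent. The Errfi1 window held TGACGTCA, which 1.79% of all windows hold, and a match to the hypoxia motif that overlaps it. Elsewhere the Spred3 window held TGAATGAA, found in 1.30% of all windows, the first Errfi1 window held the TEAD motif, and Spred1 and the first Etv5 window held the hypoxia motif, found in 19.6%. Matches to the AP-1 motif, the ETS motif, the CIC motif ending in GGA, the EGR motif and the CArG box were in none of the 9 windows, and in 7.81%, 8.86%, 1.21%, 0.612% and 1.63% of all windows. A match is a description of letters, and its absence from these windows says nothing about the rest of a gene. The number of CG pairs was 29 in the Spry1 window and 28 in that of Spry2, while the 7 windows of genes not called held between 2 and 41, both ends in Errfi1, and the median over all windows was 7.

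The SPRED genes, whose products share the cysteine-rich Sprouty domain, were not called in either direction. Spred1, on the plus strand of chromosome 2 from 117121374 to 117182279, had 1271 counts in the Lv_AI662270 library and 1593 in the Lv_NC library. It stood at 81.6 CPM (77.1 to 86.2) in the Lv_AI662270 library and 105 CPM (99.7 to 110.1) in the Lv_NC library, a ratio of 0.779 (0.723 to 0.839). Loss of this gene in people causes Legius syndrome, a disorder of RAS signalling.

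Spred2, on the plus strand of chromosome 11 from 19924375 to 20024026, encodes another adaptor of the family that binds neurofibromin. It had 1617 counts in the Lv_AI662270 library and 1640 in the Lv_NC library, or 104 CPM (98.8 to 109) and 108 CPM (103 to 113), a ratio of 0.962 (0.898 to 1.03). Its interval holds 1, and its log2 ratio lay between -0.06 and 0.04 over the other scalings, pseudocounts and corrections tried, so no direction is given. Spred3, on the minus strand of chromosome 7 from 29158829 to 29170411, had 341 counts in the Lv_AI662270 library and 468 in the Lv_NC library. Its level was 21.9 CPM (19.6 to 24.3) in the Lv_AI662270 library and 30.8 CPM (28.1 to 33.7) in the Lv_NC library, a ratio of 0.711 (0.617 to 0.819). Spred3 overlaps Ggn on the opposite strand by 202 bases, and the reads of the 2 genes cannot be told apart there without strand. The same limit holds for Spry1 with Gm42922 (710 bases), Phlda1 with Gm28592 (1088) and Errfi1 with 1700045H11Rik (1031). It also holds for Spry4 with Gm27369 (71) and Gm27804 (119). Ggn had 35 counts in the Lv_AI662270 library and 38 in the Lv_NC library, Gm42922 had 3 and 1, and Gm27804 had 0 and 1. Gm28592, 1700045H11Rik and Gm27369 had 0 in both libraries.

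Added over the family, SPRED transcripts came to 207 CPM in the Lv_AI662270 library and 243 CPM in the Lv_NC library, a ratio of 0.851 (0.812 to 0.893). For the Sprouty sum the ratio was 0.336 (0.314 to 0.359). Within the Lv_AI662270 library there were 0.368 Sprouty counts per SPRED count, against 0.932 in the Lv_NC library. The change of this ratio between the libraries was 0.395 (0.364 to 0.429), a value that needs no library scaling. 

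**Figure D3:**
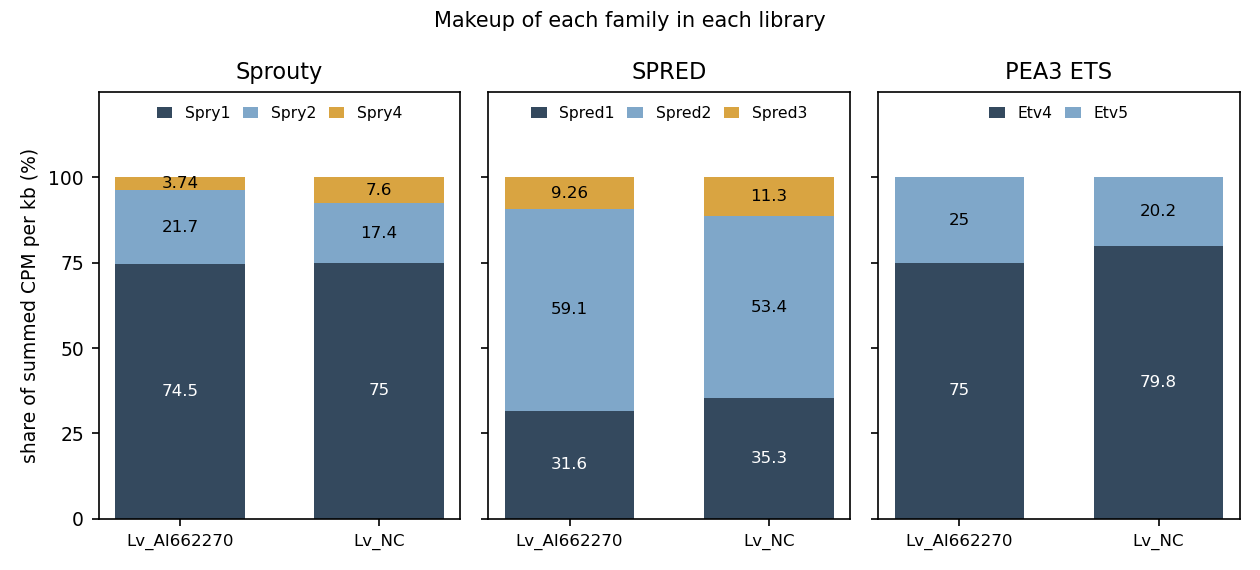
Share of each gene in the summed CPM per kb of its family, in percent, in the Lv_AI662270 library (left bar) and the Lv_NC library (right bar). Spry1 fills nearly the same share of the Sprouty sum in both bars, while the share of Spry4 is 3.74% in the Lv_AI662270 library and 7.60% in the Lv_NC library.

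The makeup of each family was compared per kb of gene length, since longer genes collect more reads. Spry1 made up 74.5% of the Sprouty sum in the Lv_AI662270 library and 74.96% in the Lv_NC library. Spry2 made up 21.7% in the Lv_AI662270 library and 17.4% in the Lv_NC library. Spry4 made up 3.74% in the Lv_AI662270 library and 7.60% in the Lv_NC library. The same order held for counts, where Spry4 took 6.14% (4.85 to 7.66) of the 1188 Sprouty counts in the Lv_AI662270 library and 12.1% (10.996 to 13.2) of the 3448 in the Lv_NC library. In the Lv_NC library the interval of Spry4 overlaps that of Spry2, which took 12.6% (11.5 to 13.7) of the counts. Among SPRED genes, Spred2 took 59.1% per kb in the Lv_AI662270 library and 53.4% in the Lv_NC library, and Spred1 took 31.6% and 35.3%. Per kb, Spry1 thus remained the leading Sprouty transcript and Spred2 the leading SPRED transcript in both libraries. By counts in the Lv_NC library, Spred2 with 44.3% (42.7 to 45.9) and Spred1 with 43.0% (41.4 to 44.7) have overlapping intervals.

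The ETS factor genes were not called in either direction. Etv4, on the minus strand of chromosome 11 from 101769742 to 101785371, had 562 counts in the Lv_AI662270 library and 713 in the Lv_NC library. It stood at 36.1 CPM (33.1 to 39.2) in the Lv_AI662270 library and 46.9 CPM (43.5 to 50.5) in the Lv_NC library, a ratio of 0.769 (0.687 to 0.860) that did not reach 2-fold. Etv5, on the minus strand of chromosome 16 from 22381309 to 22439719, had 248 counts in the Lv_AI662270 library and 239 in the Lv_NC library. Its level was 15.9 CPM (13.997 to 18.03) in the Lv_AI662270 library and 15.7 CPM (13.8 to 17.8) in the Lv_NC library, a ratio of 1.01 (0.844 to 1.21) whose interval holds 1. The third PEA3 gene, Etv1, had 33 counts in the Lv_AI662270 library and 18 in the Lv_NC library, and its ratio of 1.79 (0.978 to 3.37) was not called.

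Spry4 and Etv5 are both read as outputs of ERK, and they had the lowest and the highest log2 ratio of the 10 genes. The Lv_AI662270 library held 0.294 counts of Spry4 per count of Etv5 and the Lv_NC library 1.74. The change between the libraries was 0.169 (0.123 to 0.232). The pair was chosen after its values were seen.

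Phlda1, on the plus strand of chromosome 10 from 111506286 to 111508645, encodes a protein with a pleckstrin homology-like domain that growth factors induce through ERK. It had 363 counts in the Lv_AI662270 library and 1048 in the Lv_NC library. The level was 23.3 CPM (20.96 to 25.8) in the Lv_AI662270 library and 68.9 CPM (64.8 to 73.2) in the Lv_NC library, 2.96-fold lower (2.62 to 3.34) in the Lv_AI662270 library. Its interval is close to that of Spry1 and overlaps it.

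The paralogs of Phlda1 were not called. Phlda2, an imprinted gene that restrains growth of the placenta, had 89 counts in the Lv_AI662270 library and 118 in the Lv_NC library, a ratio of 0.736 (0.553 to 0.977). Phlda3, a p53 target that restrains AKT, had 1184 counts in the Lv_AI662270 library and 775 in the Lv_NC library, a ratio of 1.49 (1.36 to 1.63). Counts of Phlda1 per count of Phlda3 were 0.307 in the Lv_AI662270 library and 1.35 in the Lv_NC library. This pair was not fixed in advance, and the same ratio to Phlda2 was not computed.

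Errfi1, on the plus strand of chromosome 4 from 150853919 to 150868892, encodes the EGF receptor inhibitor also called MIG6. It had 1262 counts in the Lv_AI662270 library and 2021 in the Lv_NC library. Its level was 81.0 CPM (76.6 to 85.6) in the Lv_AI662270 library and 133 CPM (127 to 139) in the Lv_NC library, a ratio of 0.609 (0.567 to 0.654). The intervals of the 2 levels do not meet, but the log2 ratio of -0.71 did not pass the 2-fold rule. With a threshold of 1.5-fold in place of 2-fold Errfi1 was called lower, and the number of genes called lower was 5 of the 10.

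**Figure D4:**
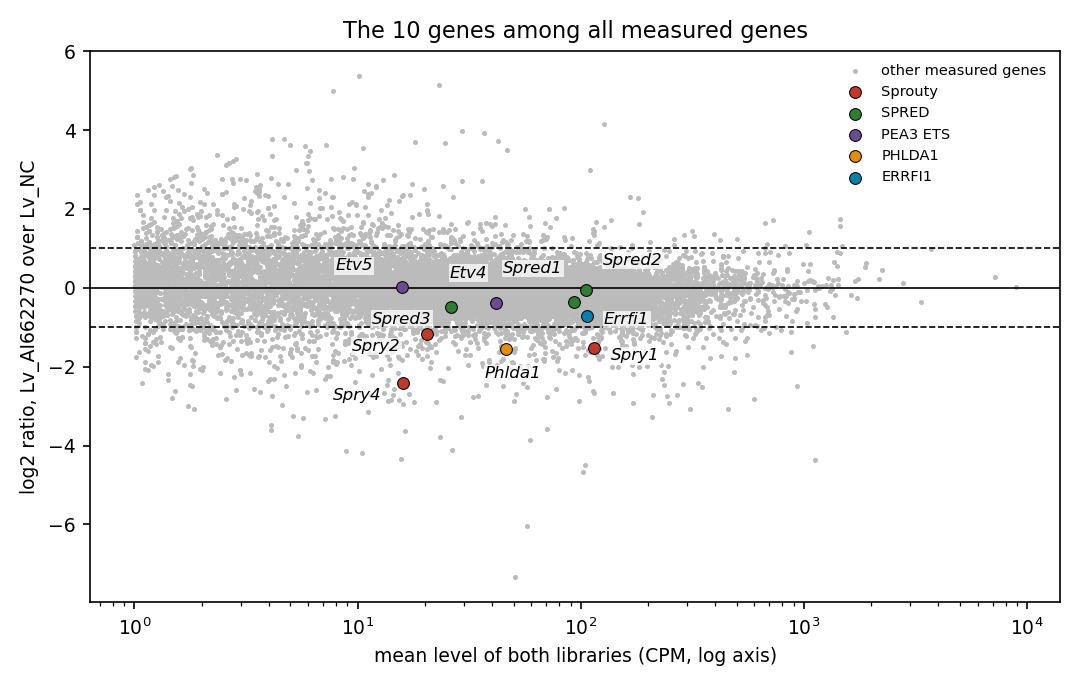
Log2 ratio, Lv_AI662270 over Lv_NC, against the mean level of both libraries (CPM, log axis) for all 13268 measured genes in grey and the 10 genes in colour. Dashed lines mark a log2 ratio of 1 and -1. Spry1, Spry2, Spry4 and Phlda1 lie below the lower dashed line, and the other 6 genes lie between the lines.

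Counting error alone gives a finer division of the 10 genes. The interval of the ratio lay wholly below 1 for 8 of them, namely the 4 called lower and Spred1, Spred3, Etv4 and Errfi1, and it held 1 for Spred2 and Etv5. At this depth that is common, since the interval lay wholly below 1 for 35.8% of measured genes. Within that share, 30.1% of measured genes had an interval below 1 and did not pass the 2-fold rule, the class that holds Spred1, Spred3, Etv4 and Errfi1.

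The order of levels per kb differed between the libraries. In the Lv_AI662270 library Errfi1 and Spred2 led with 22.6 and 22.5 CPM per kb, followed by Spry1 with 20.4, and the intervals of these 3 levels overlap. In the Lv_NC library Spry1 led with 58.8 CPM per kb, ahead of Errfi1 with 37.1 and Phlda1 with 31.3, and these 3 intervals are separate. Spry4 was last in the Lv_AI662270 library with 1.02 CPM per kb, below the intervals of Spred3 and Etv5, while in the Lv_NC library it had 5.97 CPM per kb, above Etv5 with 3.83 and with an interval that overlaps that of Spred3.

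The 4 genes called lower share a gene structure that had no part in their choice. In the GENCODE M21 transcript with the longest coding sequence, Spry1, Spry2, Spry4 and Phlda1 each carry the whole coding sequence in 1 exon. The other 6 genes have between 3 coding exons, in Errfi1, and 13, in Etv5. Of 11849 measured genes with a coding transcript, 5.37% have a single coding exon. As a class those genes had a median log2 ratio of 0.11, and 7.55% of them were called lower, against 5.23% of all measured genes with a coding transcript. The match of structure and call among the 10 genes was noticed after the values were known. Spry1, Spry2 and Spry4 are paralogs of the same family, so the 4 genes are not independent cases of it.

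AU-rich elements in the 3′ untranslated region shorten the life of many growth factor induced transcripts. The pentamer ATTTA occurred at least once in 9 of the 10 genes, Etv4 being the exception. The median over measured genes with such a region was 1, and 53.0% of those genes had fewer than 2 copies. The share of them with at least 1 copy was not computed. Spry1 and Spry2 had 2 copies each, Phlda1 had 3 and Spry4 had 7, while Spred1, which was not called, had 12. The untranslated regions of Spry4 and Spred1 are 3559 and 4330 bases long, against a median of 994 bases over the same measured genes. Per kb of untranslated region Phlda1 was the densest, with 4.90 copies against a median of 1.22 over the same genes. Phlda1 was also alone among the 10 genes in holding the longer element TTATTTATT, which 7.48% of the 11657 measured genes with a coding transcript and a 3′ untranslated region hold. Of the genes that hold it 7.91% were called lower, against 5.27% of the 11657.

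The genes beside the 4 called genes on their chromosomes were read as well. The 10 nearest measured neighbours, 5 on each side, had a median log2 ratio of 0.06 for Spry1, -0.32 for Spry2 and 0.04 for Spry4, and of -0.17 for Phlda1. Of the 10 neighbours, 1 was called lower and 1 higher beside Spry1, 2 lower and 2 higher beside Spry2, 1 lower and 1 higher beside Spry4, and 0 in either direction beside Phlda1. Over all measured genes the shares were 5.72% lower and 5.59% higher. Spry2 lies in a sparse region, and its farthest counted neighbour is 12.2 Mb away.

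**Figure D5:**
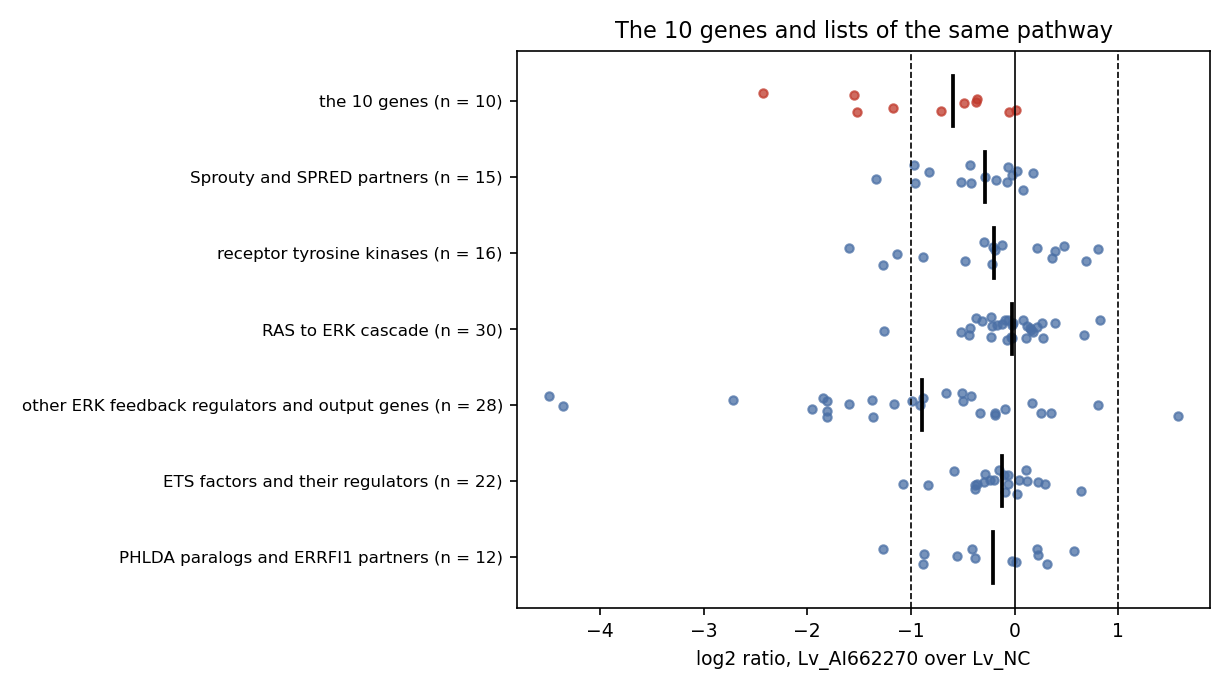
Log2 ratio, Lv_AI662270 over Lv_NC, of the 10 genes (red) and of the measured genes of 6 lists of the same pathway (blue), with the median of each row as a black bar and dashed lines at -1 and 1. The row of ERK feedback and output genes spans -4.49 to 1.58, and that of the RAS to ERK cascade spans -1.26 to 0.82.

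Other genes of the route were read from 6 lists, some of which share members. The lists were chosen with earlier results of these data known, so their counts are no independent test of the route. Their counts stand beside the 5.72% of all measured genes called lower, the 5.59% called higher and the median log2 ratio of -0.02. In the list of other ERK feedback regulators and output genes, 12 of 28 measured genes were lower and 1 was higher, with a median log2 ratio of -0.90. The 4 genes of this list with the largest log2 ratios in size were Fos, Egr1, Myc and Dusp1. The transcription factor gene Myc had 1109 counts in the Lv_AI662270 library and 7159 in the Lv_NC library, a ratio of 0.151 (0.142 to 0.161). Dusp1, a MAP kinase phosphatase gene, had 1077 counts in the Lv_AI662270 library and 4083 in the Lv_NC library, a ratio of 0.257 (0.240 to 0.275). The early response factor gene Fos had 131 counts in the Lv_AI662270 library and 3039 in the Lv_NC library, a log2 ratio of -4.49. Egr1, another of this kind, had 1614 counts in the Lv_AI662270 library and 32451 in the Lv_NC library, a log2 ratio of -4.36. The gene that was higher was the paralog Spry3. The other phosphatase genes of the DUSP family given here were singled out after their values were seen. Dusp5, whose product acts on ERK in the nucleus, and Dusp2 were called lower, with ratios of 0.275 (0.249 to 0.303) and 0.370 (0.287 to 0.473). Dusp6, whose product acts on ERK in the cytoplasm, and Dusp4 were not called, with ratios of 0.540 (0.481 to 0.605) and 0.627 (0.533 to 0.736). Il17rd, another feedback inhibitor of FGF receptors singled out in the same way, had 922 counts in the Lv_AI662270 library and 702 in the Lv_NC library, a ratio of 1.28 (1.16 to 1.42).

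Of the 30 measured genes of the cascade list, 1 was lower and 0 were higher, with a median of -0.03. This list runs from the receptor adaptors to ERK and its kinase targets. It also holds inhibitors of the route, among them the neurofibromin gene Nf1. The lower gene was Sos2, an exchange factor that loads RAS, with 666 counts in the Lv_AI662270 library and 1568 in the Lv_NC library and a ratio of 0.414 (0.378 to 0.454). Its close relative Sos1, given for comparison after the values were seen, had a ratio of 0.802 (0.749 to 0.859).

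Among receptor tyrosine kinases, 3 of 16 measured genes were lower and 0 were higher, with a median of -0.20. Epha2, an ephrin receptor gene that ERK induces and that stands in the output list as well, had 2068 counts in the Lv_AI662270 library and 6129 in the Lv_NC library, a ratio of 0.329 (0.313 to 0.346). Egfr, which encodes the receptor that ERRFI1 inhibits, had 1947 counts in the Lv_AI662270 library and 4594 in the Lv_NC library, a ratio of 0.414 (0.392 to 0.436). Fgfr2 had 76 and 172 counts in the Lv_AI662270 and the Lv_NC library, a ratio of 0.431 (0.325 to 0.568), and it was not called with 2 CPM added to each level or on the deposited FPKM.

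Of the partners of Sprouty and SPRED proteins, 1 of 15 measured genes was lower and 0 were higher, with a median of -0.28. It was Cblc, a ubiquitin ligase gene of the CBL family, with 80 counts in the Lv_AI662270 library and 208 in the Lv_NC library and a ratio of 0.375 (0.286 to 0.488). Of the ETS factors and their regulators, 1 of 22 was lower and 0 were higher, with a median of -0.13. It was Ets2, itself a target of ERK phosphorylation, with 1886 counts in the Lv_AI662270 library and 3884 in the Lv_NC library and a ratio of 0.474 (0.448 to 0.501), and it was not called when libraries were scaled by total counts. Of the PHLDA paralogs and ERRFI1 partners, 1 of 12 was lower, Egfr as given above, and 0 were higher, with a median of -0.20.

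The authors' deposited table compares the same 2 libraries and lists an adjusted p-value under 0.05 for 3 of the 10 genes and for 4.34% of the 20667 genes with a value. In the authors' deposited table the log2 fold changes of these 3 genes were -2.54 for Spry4, -1.56 for Phlda1 and -1.53 for Spry1. Spry2 has a log2 fold change of -1.20 in the authors' deposited table, without an adjusted p-value under 0.05. With 1 library per group those p-values rest on no spread between replicates.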

How the data were processed

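RNA was measured in 1 library per group. Per the submitters' processing notes, CASAVA 1.4 and TopHat2 were used with build mm10. No source used here gives the read counter, annotation release or strand. The deposited counts are raw read numbers for each gene. The deposited FPKM columns are counts divided by gene length and by 1 divisor common to both libraries, judged from the values. The signal columns, in which the authors rescaled counts between libraries, were left aside. Per the file headers, the log2 fold changes and p-values come from the authors. Of 54713 rows, 181 lack an Ensembl identifier. A second deposited table, which repeats rows of the first, was not used here.

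Counts were scaled with TMM in edgeR 4.0.16 (R 4.3.3), with factors of 1.03 for the Lv_AI662270 and 0.967 for the Lv_NC library. CPM, log2 ratios with a pseudocount of 0.5 CPM and exact intervals (Clopper-Pearson for ratios and shares, Poisson for levels, Fisher's conditional interval for ratios of count ratios) were computed in Python 3.11.15 with scipy 1.17.1. Levels between genes were compared per kb of deposited length. Where a symbol had more than 1 row, that with the highest total count was kept. No p-value was computed. Reads carried no molecular identifiers. Gene structure came from GENCODE M21, which has the deposited coordinates of 9 of the 10 genes, and promoters from RefSeq. Data were simulated for the same comparison over 13268 measured genes. Poisson counts were drawn for both libraries from the same mean levels, apart from the genes altered by a known fold. On these data the calls took in 49 of 50 genes altered 3-fold, 2 of 50 altered 1.5-fold and 2 of 13089 left unaltered. The simulation holds counting error alone, without spread between cultures or library preparations, so these shares are not error rates for the cells.

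The members and lists were chosen with earlier results of these data known. Named were the 10 genes, their paralogs and, in each list, up to 4 called genes, those with the log2 ratios farthest from 0. Dusp2, Dusp4, Dusp5, Dusp6, Il17rd and Sos1 were named outside this rule, after their values were seen. Alternatives were scaling by total counts, DESeq2 1.42.0 size factors or upper quartiles, other pseudocounts, filters and thresholds, protein-coding genes alone, FPKM and a correction in 20 bins of gene length.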

Additional observations from a re-analysis of the deposited data

How the results depend on the processing

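The 4 genes called lower were so under each scaling, pseudocount and filter tried, on FPKM and after the length correction, and at a threshold of 3-fold 1 was lower, Spry4. The log2 ratio of Spry4 was -2.13 with 2 CPM added and -2.06 on FPKM. The number of measured genes called higher was 400 with 2 CPM added, 391 at a mean of at least 5 CPM and 486 on FPKM. At 1.5-fold 1705 measured genes were higher and 1893 lower, at 3-fold 247 and 262, and in the range of levels of the 10 genes, a restriction added after seeing the data, 157 and 282. In the list of ERK output genes the higher gene was lost, leaving 0, with 2 CPM added, at 5 CPM, on FPKM and at 3-fold, and at 1.5-fold there were 2. Among receptor tyrosine kinases 3 were higher without a filter and 2 at 1.5-fold, and 1 was lower at 3-fold and 2 with 2 CPM added or on FPKM, without Fgfr2. Of the ETS list 0 were lower with total counts, and 2 at 1.5-fold. At 1.5-fold 4 Sprouty and SPRED partners and 3 genes of the PHLDA and ERRFI1 list were lower and 2 of the cascade higher, and at 3-fold 0 were lower in each of these lists and the ETS list. No paired analysis was possible because each group holds 1 library, and for the same reason no library could be left out. Where the threshold, filter or pseudocount was changed, the values move by its construction. FPKM holds the same counts over gene length, with the pseudocount added in FPKM, so it is no separate check. For the other settings the cause was not tested. Depth limits genes with few counts, such as Spry4 with 73 in the Lv_AI662270 library, and Spry3 with 8 and Etv1 with 18 in the Lv_NC library.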
